A study of Mus musculus with 6 samples.

Results

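Amino acid transporters of the solute carrier (SLC) families 1, 3, 6, 7, 36, 38 and 43 were examined in mouse embryonic fibroblasts, connective-tissue cells grown out of embryos. A gene was taken as a member when its symbol was Slc followed by 1 of these 7 family numbers, the letter a and a member number, which gave 62 genes of the 52006 named loci. The series held 3 libraries labelled Fbxw7 KO and 3 libraries labelled WT, all from fibroblasts cultured in DMEM supplemented with 15% FBS and 1% NEAA, a medium that itself supplies amino acids. Fbxw7 encodes the substrate-recognition subunit of a ubiquitin ligase that targets MYC, cyclin E, JUN and NOTCH for degradation. The labels used here gave no deletion method, driver of recombination, strain or embryonic age, and did not state whether replicates derive from different embryos or cultures. The p-values below therefore speak for the spread among these 6 libraries alone, part of which may be technical.

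Cells cannot make the essential amino acids, and plasma membrane carriers set how fast these enter. Exchangers of family 7 work as pairs, in which a light chain that moves the substrate is bound to a heavy chain of family 3 that brings it to the cell surface, while sodium-coupled carriers of families 1, 6 and 38 load the cell with the neutral amino acids that the exchangers trade. Carriers on lysosomes, among them members of families 36 and 38, pass amino acids between the lysosome and the cytosol and take part in nutrient sensing by mTORC1.

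Several transcripts for neutral and cationic amino acid uptake were more abundant in the KO fibroblasts, while 5 carriers were less abundant, including 2 that also take up neutral amino acids, Slc6a14 and Slc6a15. The glutamine carrier Slc38a1 stood 3.02-fold higher in KO cells than in WT cells, the glycine transporter Slc6a9 2.52-fold, the cystine exchanger Slc7a11 2.71-fold, the neutral amino acid exchanger Slc1a5 1.82-fold and the shared heavy chain Slc3a2 1.63-fold. The arginine carrier Slc7a3 was 6.88-fold higher. The family 38 gene Slc38a10 was 1.49-fold lower in KO cells, the taurine transporter Slc6a6 1.48-fold lower, the neutral amino acid carrier Slc6a15 1.73-fold lower and the serotonin transporter Slc6a4 3.98-fold lower. The scarce Slc6a14, which takes up neutral and cationic amino acids, fell by 3.02 on the log2 scale. The statistics of each are given with the gene.

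Of the 62 members, 37 had enough fragments to be tested, 17 fell below the count filter and 8 had no fragment in any library. Among the 37 tested, 11 were higher and 5 lower in KO cells at an adjusted p under 0.05 (edgeR quasi-likelihood test, Benjamini-Hochberg adjustment over all 16787 genes tested), and 21 did not pass. The 16 members called made up 43.2% of those tested, against 16.1% of all tested genes. The 11 higher members made up 29.7%, against 8.03% of all tested genes called higher, and the 5 lower members made up 13.5%, against 8.08% called lower. In 23 of the 37 members, or 62.2%, the 3 KO libraries did not overlap the 3 WT libraries, against 37.7% of all tested genes. The median log2 fold change (KO over WT) of the tested members was 0.25, against 0.01 over all tested genes, but without WT replicate 3 the members' median was -0.02. The members differed in how far they passed: 5 of the 16 calls, those of Slc38a1, Slc6a9, Slc1a5, Slc7a11 and Slc43a1, held under every alternative in which they were tested.

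The libraries held 51152372 to 70625737 fragments before a scaling applied by the authors, so a count of 0 allows up to 3 fragments, or 0.0425 to 0.0586 CPM, from counting error alone. Replicates 1 and 2 of a genotype resembled each other more than either resembled replicate 3, with a spread of 6.56 times sampling noise between KO replicates 1 and 2 and 7.54 times between WT replicates 1 and 2, against 27.3 to 44.1 times in pairs with replicate 3. Without replicate 3 of both genotypes, 15 of 37 tested members were higher and 7 lower, while 6993 of all 16926 tested genes were called. That setting keeps only the more alike pair of each genotype, so its p-values, here and below, leave out the spread that replicate 3 brought. Fbxw7 itself averaged 26.4 ± 1.97 CPM (fragments scaled to a common library size with TMM factors) in KO libraries and 29.3 ± 0.869 CPM in WT libraries (SD, n = 3 each), a difference that did not pass (log2 fold change -0.16 ± 0.10 SE, edgeR adjusted p = 0.332). This value sums a whole locus (chromosome 3, 84496093 to 85887518), which may reach beyond the gene. It does not check the deletion, so the libraries are called KO as labelled. The locus of Xist, which silences the X chromosome in female cells, averaged 911 ± 126 CPM in KO libraries and 1.47 ± 1.09 CPM in WT libraries, and the Y-linked Ddx3y averaged 30.4 ± 6.01 CPM in KO libraries and 95.9 ± 13.8 CPM in WT libraries. The Y-linked Eif2s3y, Kdm5d and Uty were lower in KO libraries too, though still present, so genotype and the sex or mixture of the embryos behind the libraries cannot be told apart for any member. Fibroblast markers summed to 5822 to 6752 FPKM (which divides fragments by transcript length and library size) in KO libraries and 7351 to 8364 in WT libraries, where 1 of 6 tested markers, Vim, was lower (log2 fold change -0.83, edgeR adjusted p = 0.00972). Other markers were scarce: endothelial markers summed to 0.228 to 0.277 FPKM in KO libraries and 1.17 to 2.05 in WT libraries, with both tested markers, Kdr and Tek, lower. Epithelial markers summed to 0.0404 to 0.0804 FPKM in KO libraries and 0.127 to 0.255 in WT libraries. Leukocyte markers summed to 4.62 to 5.37 FPKM in KO libraries and 4.17 to 4.92 in WT libraries, and neural markers to 1.12 to 3.78 FPKM in KO libraries and 7.03 to 7.59 in WT libraries, with Map2 and the leukocyte marker Cd68 lower and Adgre1 and Rbfox3 at 0. Muscle markers reached at most 0.0646 FPKM in KO libraries and 0.148 in WT libraries, and adipocyte markers at most 0.0816 in KO libraries and 0.0232 in WT libraries. The part of these differences between libraries in the transporter results was not tested, and in bulk RNA fewer expressing cells and less RNA per cell cannot be told apart.

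Levels of different genes were compared as FPKM, which is scaled to transcript length. The members spanned a wide range: 14 averaged at least 10 FPKM over the 6 libraries, 14 averaged 1 to 10 and 34 averaged under 1. Slc3a2 was the most abundant, at 154 ± 5.86 FPKM in KO cells and 97.4 ± 4.19 FPKM in WT cells (SD, n = 3 each). In KO cells the next were Slc38a2, the main inducible glutamine and alanine importer, at 91.5 ± 3.27 FPKM, Slc38a10 at 79.2 ± 11.7 FPKM and the creatine transporter Slc6a8 at 70.5 ± 5.04 FPKM. Of these neighbours, Slc38a2 and Slc38a10 overlapped in KO libraries, since Slc38a10 reached 90.1 FPKM and Slc38a2 began at 88.5 FPKM, and so did Slc38a10 and Slc6a8. In WT cells the first place went instead to Slc38a10, at 123 ± 8.91 FPKM, with all 3 WT libraries above those of Slc3a2. All members together summed to 657 ± 33.9 FPKM in KO cells and 583 ± 26.1 FPKM in WT cells.

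**Figure D1:**
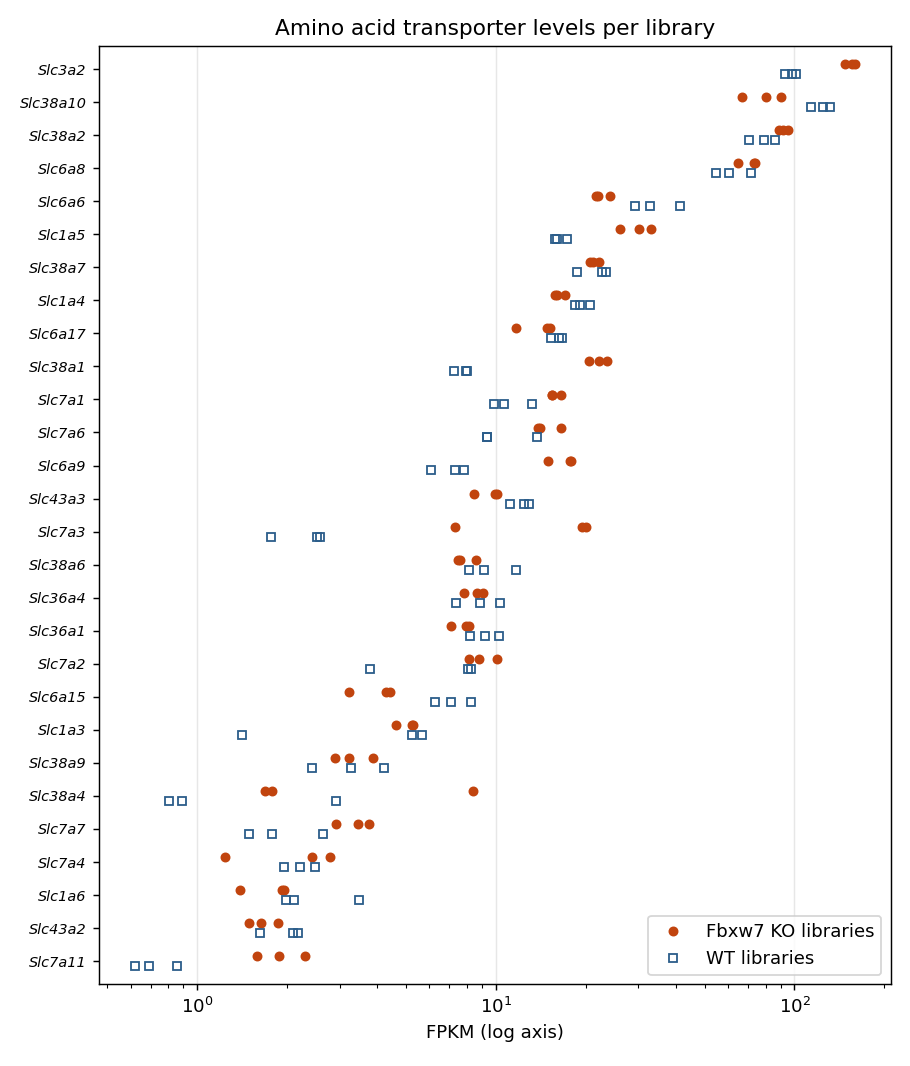
Level of each member averaging at least 1 FPKM, in FPKM on a log axis, with 1 circle per Fbxw7 KO library and 1 square per WT library, ordered by mean level. Slc3a2 stands first at 148 to 159 FPKM in KO libraries and 93.1 to 101 FPKM in WT libraries, and the circles of Slc38a1 and Slc7a3 lie to the right of their squares.

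The direction of the members varied by family, with no test made between families. All 8 tested members of family 7 had a positive log2 fold change, 5 of them higher by the test, with a median of 0.68, but Slc7a4 turned negative without WT replicate 3 and in the fits on FPKM. Family 6 was the most mixed, with 2 of 10 tested members higher, 4 lower and a median of -0.09. Family 38 had 1 of 7 higher and 1 lower, family 1 had 1 of 5 higher, family 3 had 1 of 2 higher, family 43 had 1 of 3 higher and family 36 had neither of 2 past the test, and in families 1, 3, 7, 36 and 43 the count of lower members was 0 by edgeR, also at an unadjusted p under 0.05, and 0 by DESeq2, although Slc1a4 and Slc36a1 passed as lower without replicate 3 of both genotypes. Family 7 summed to 67.5, 65.4 and 56.1 FPKM in KO replicates 1, 2 and 3, against 34.7, 36.4 and 37.3 FPKM in WT replicates 1, 2 and 3, and the groups did not overlap. The sums of family 1 (53.3 ± 3.02 FPKM in KO cells and 42.9 ± 3.09 FPKM in WT cells) and family 3 (154 ± 5.91 FPKM in KO cells and 97.6 ± 4.17 FPKM in WT cells) did not overlap either. Family 6 summed to about the same, 128 ± 10.1 FPKM in KO cells and 128 ± 16.0 FPKM in WT cells, and Slc6a8 alone made up 51.7% of it. The sums of family 38 (229 ± 8.49 FPKM in KO cells and 246 ± 14.4 FPKM in WT cells) and family 43 (12.3 ± 0.587 FPKM in KO cells and 14.4 ± 1.27 FPKM in WT cells) were lower in KO cells, without overlap but narrowly. The highest KO library and the lowest WT library had 234.8 and 236.0 FPKM in family 38, and 12.7 and 13.0 FPKM in family 43. In family 38, 5 of 7 tested members had a positive log2 fold change, with a median of 0.14. Family 36 overlapped, at 16.2 ± 1.18 FPKM in KO cells and 18.1 ± 2.52 FPKM in WT cells. These sums carry no test.

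**Figure D2:**
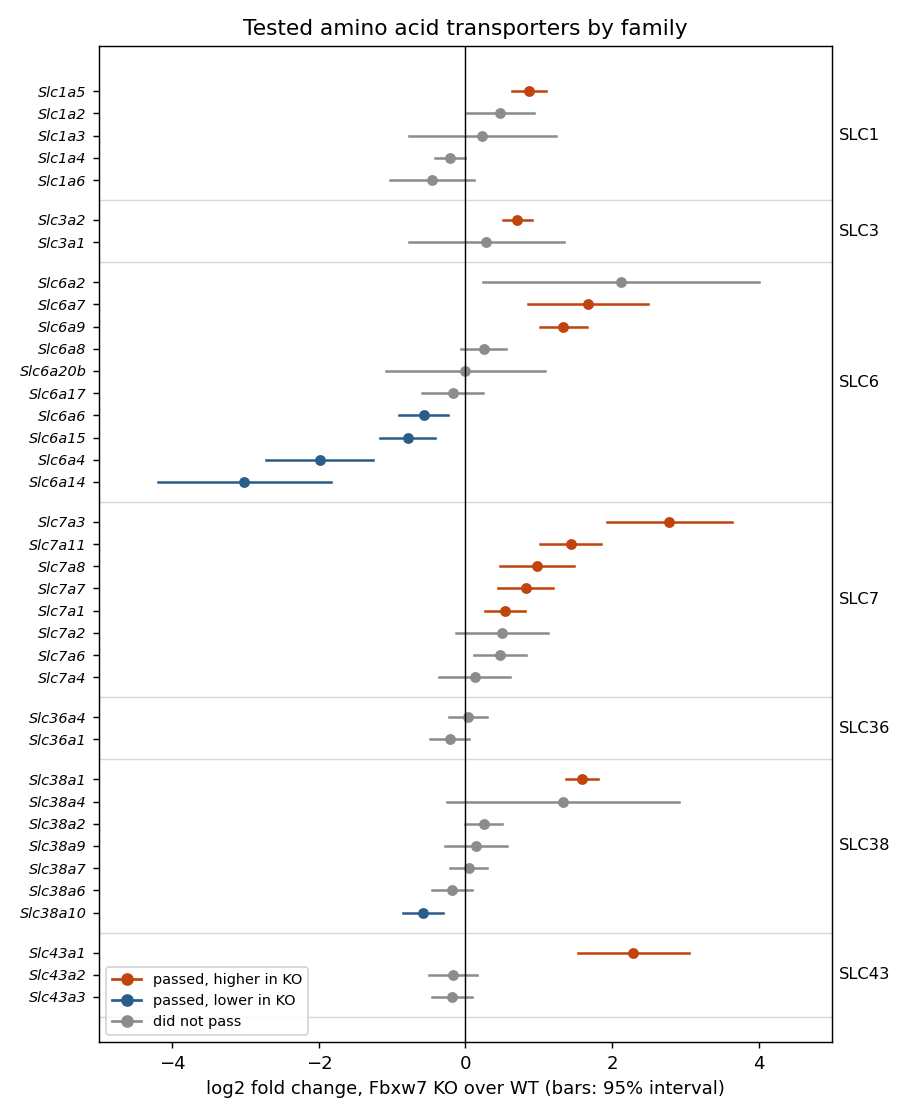
Log2 fold change, Fbxw7 KO over WT, of the 37 tested members grouped by family, with bars for the 95% interval and colours for members that passed higher in KO, passed lower in KO or did not pass. All 8 points of family 7 lie right of 0 (Slc7a4 turned negative without WT replicate 3 and in the fits on FPKM), while family 6 reaches from -3.02 for Slc6a14 to 2.12 for Slc6a2, which did not pass.

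The heavy chain Slc3a2 (also CD98hc or 4F2hc; chromosome 19, 8706882 to 8723369, mm10) carries the light chains of family 7 to the surface. It had 268, 269 and 253 CPM in KO replicates 1, 2 and 3, against 156, 169 and 158 CPM in WT replicates 1, 2 and 3. Each KO library exceeded each WT library, with a log2 fold change of 0.71 ± 0.09 (SE; edgeR adjusted p = 0.00222). The other heavy chain gene, Slc3a1, which serves cystine uptake in kidney, was scarce, at 0.307 to 0.488 CPM in KO libraries and 0.147 to 0.487 CPM in WT libraries. Its difference did not pass (0.29 ± 0.45, edgeR adjusted p = 0.713), and its locus overlaps Prepl.

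Among the light chains, Slc7a11 (xCT; chromosome 3, 49892526 to 50443614) exchanges cystine for glutamate and so feeds glutathione synthesis. It had 19.0, 15.9 and 22.9 CPM in KO replicates 1, 2 and 3, against 6.91, 6.11 and 8.29 CPM in WT replicates 1, 2 and 3. The groups were well apart, with the lowest KO library above the highest WT library, and the log2 fold change was 1.44 ± 0.18 (SE; edgeR adjusted p = 0.00239). The promoter of Slc7a11 is shown because it held the composite element that C/EBP and ATF factors bind, searched as TGATGNAAN, at 2 places in opposite orientation. The 250 bases before its start (RefSeq, GRCm38.p6, chr3:50443614-50443863, minus strand) read 5′ to 3′ as follows, with both matches in capitals.
Slc7a11: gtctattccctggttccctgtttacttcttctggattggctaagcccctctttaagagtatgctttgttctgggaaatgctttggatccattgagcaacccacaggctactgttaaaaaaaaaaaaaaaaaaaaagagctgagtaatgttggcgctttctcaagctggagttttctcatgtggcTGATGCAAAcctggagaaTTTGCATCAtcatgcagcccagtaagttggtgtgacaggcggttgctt
The matches begin 66 and 48 bases before the start. A match is a description of letters, and these data hold no binding.

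Slc7a7 (chromosome 14, 54360834 to 54417780) is the light chain that exports cationic amino acids in exchange for neutral ones. It had 5.54, 5.89 and 4.88 CPM in KO replicates 1, 2 and 3, against 2.77, 3.25 and 3.20 CPM in WT replicates 1, 2 and 3. The KO libraries lay above the WT libraries, with a log2 fold change of 0.82 ± 0.16 (SE; edgeR adjusted p = 0.0139), although its locus overlaps Oxa1l and reads of the overlap may be shared. Slc7a8 (LAT2; chromosome 14, 54722209 to 54781946), a light chain for neutral amino acids, was low, at 1.37, 1.30 and 1.19 CPM in KO replicates 1, 2 and 3 and 0.706, 0.631 and 0.621 CPM in WT replicates 1, 2 and 3. Its groups did not overlap either (0.98 ± 0.22, edgeR adjusted p = 0.0218). Both calls were lost when any of KO replicates 1 and 2 or WT replicates 1 and 2 was left out: the adjusted p of Slc7a7 was then 0.0667, 0.0619, 0.0683 and 0.0521, and that of Slc7a8 was 0.0983, 0.0752, 0.068 and 0.0851. The most abundant light chain analysed here, Slc7a6 (y+LAT2, which trades cationic for neutral amino acids; chromosome 8, 106168857 to 106198706), had 48.9, 46.6 and 57.2 CPM in KO replicates 1, 2 and 3. WT replicates 1, 2 and 3 had 32.2, 32.8 and 45.0 CPM. The groups did not overlap, but the difference missed the threshold (0.48 ± 0.15, 95% interval 0.12 to 0.83, edgeR adjusted p = 0.0757). It passed in 6 of 20 alternatives, among them the DESeq2 test and library size alone, which keep all libraries. Without WT replicate 3 it was 0.65 with an edgeR adjusted p of 0.0113. The light chain Slc7a5 is not analysed here.

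Read as a composition, the light chains Slc7a6, Slc7a7, Slc7a8, Slc7a10 and Slc7a11 summed to 19.8, 19.5 and 22.0 FPKM in KO replicates 1, 2 and 3, against 11.7, 12.7 and 16.5 FPKM in WT replicates 1, 2 and 3. Slc7a6 held 69.9% to 74.9% of that sum in KO libraries and 73.2% to 83.1% in WT libraries, so the ranges overlapped. Slc7a11 held 9.55%, 8.16% and 10.5% in KO replicates 1, 2 and 3, against 5.91%, 4.87% and 5.19% in WT replicates 1, 2 and 3, with no overlap. The heavy chain exceeded the light chain sum 6.70-fold to 8.16-fold in KO libraries and 5.93-fold to 7.96-fold in WT libraries, overlapping ranges that leave out Slc7a5.

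The cationic amino acid transporters of family 7 work without a heavy chain and bring in arginine, lysine and ornithine. Slc7a3 (CAT3; chromosome X, 101079210 to 101086020) had 45.8, 44.6 and 17.5 CPM in KO replicates 1, 2 and 3, against 5.92, 5.71 and 4.05 CPM in WT replicates 1, 2 and 3. KO replicate 3 was the lowest of its group but still above all WT libraries, and the log2 fold change was 2.78 ± 0.37 (SE; edgeR adjusted p = 0.00299). Without KO replicate 3 the log2 fold change was 3.11. The call was lost with replicates 1 and 2 of each genotype summed (edgeR adjusted p = 0.0718). The gene is X-linked, and the Xist difference given above runs along the same groups; its part was not tested. Slc7a1 (CAT1; chromosome 5, 148327410 to 148399904), the widely expressed member, had 127, 119 and 121 CPM in KO replicates 1, 2 and 3, against 74.8, 79.4 and 98.2 CPM in WT replicates 1, 2 and 3. All KO libraries were above all WT libraries (0.54 ± 0.12, edgeR adjusted p = 0.0206), but the call was lost without KO replicate 1 (adjusted p = 0.0988), KO replicate 2 (0.0623), WT replicate 1 (0.0851) or WT replicate 2 (0.087). A promoter window of Slc7a1 is shown as the contrasting case. Another window of the gene (chr5:148392816-148393065) held no match to any motif searched here. The window shown held no composite element but 1 match to the antioxidant response element core, searched as TGACNNNGC, 11 bases before the start and in reverse orientation (RefSeq, GRCm38.p6, chr5:148399905-148400154, minus strand, match in capitals).
Slc7a1: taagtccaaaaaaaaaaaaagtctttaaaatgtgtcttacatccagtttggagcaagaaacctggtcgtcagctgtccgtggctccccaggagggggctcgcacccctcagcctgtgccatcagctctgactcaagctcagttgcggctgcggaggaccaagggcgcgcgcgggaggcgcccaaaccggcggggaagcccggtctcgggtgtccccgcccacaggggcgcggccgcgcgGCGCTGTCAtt

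Slc7a2 (CAT2), which cells induce for arginine supply, had 68.5, 61.2 and 81.6 CPM in KO replicates 1, 2 and 3, against 60.6, 60.0 and 28.6 CPM in WT replicates 1, 2 and 3, and did not pass (0.50 ± 0.27, edgeR adjusted p = 0.252). WT replicate 3 held less than the other WT libraries. Slc7a4, an orphan whose locus overlaps P2rx6, did not pass either (0.13 ± 0.21, edgeR adjusted p = 0.728). Together the 4 genes summed to 47.7, 45.9 and 34.0 FPKM in KO replicates 1, 2 and 3, against 23.0, 23.7 and 20.8 FPKM in WT replicates 1, 2 and 3. The share of Slc7a3 in that sum was 41.9%, 42.4% and 21.4% in KO replicates 1, 2 and 3, against 10.98%, 10.9% and 8.54% in WT replicates 1, 2 and 3. Slc7a3 thus ranked above Slc7a1 in KO replicates 1 and 2 and below it in KO replicate 3 and in all WT libraries.

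**Figure D3:**
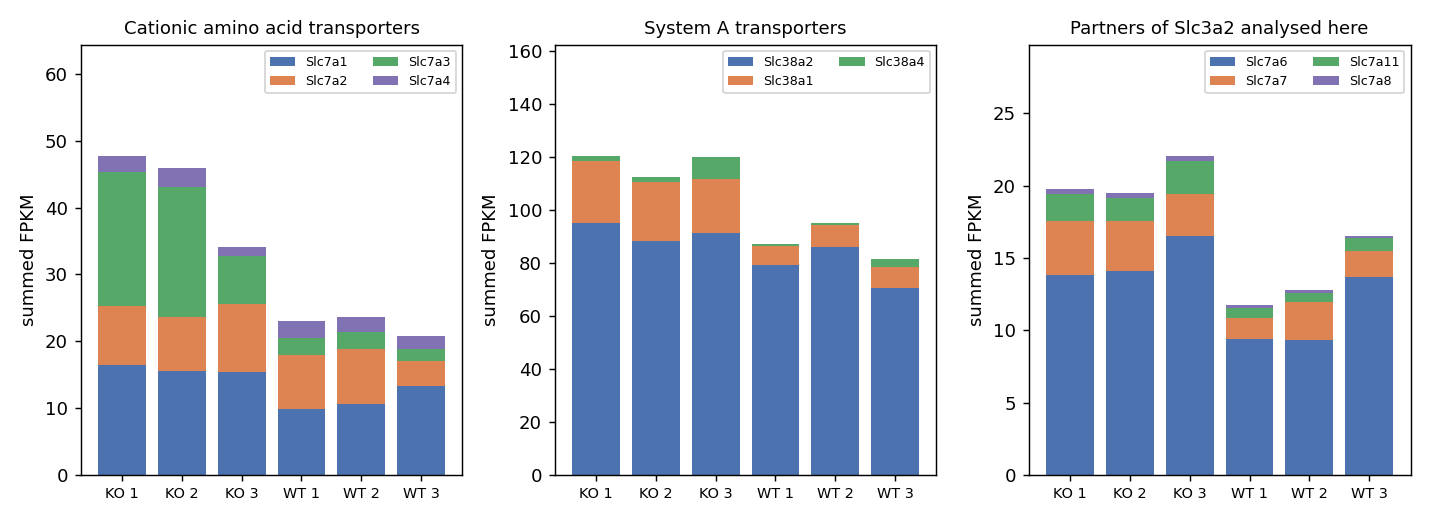
Summed FPKM per library, Fbxw7 KO libraries left of WT libraries, stacked by gene, for carrier groups of related transport. The cationic carriers reach 34.0 to 47.7 FPKM in KO libraries and 20.8 to 23.7 FPKM in WT libraries, and Slc7a3 takes up more of the KO bars.

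In family 1, the neutral exchanger Slc1a5 (ASCT2; chromosome 7, 16781340 to 16798274) takes up glutamine in exchange for other neutral amino acids. It had 82.3, 79.7 and 69.2 CPM in KO replicates 1, 2 and 3, against 41.9, 44.4 and 40.4 CPM in WT replicates 1, 2 and 3. The groups were far apart, at a log2 fold change of 0.87 ± 0.10 (SE; edgeR adjusted p = 0.00165). Its close relative Slc1a4 (ASCT1), an exchanger of alanine, serine and cysteine, lay the other way, at 66.7, 64.6 and 71.4 CPM in KO replicates 1, 2 and 3, against 78.0, 83.0 and 73.2 CPM in WT replicates 1, 2 and 3. The groups did not overlap, but the difference did not pass (-0.21 ± 0.09, 95% interval -0.42 to 0.00, edgeR adjusted p = 0.159). Without replicate 3 of both genotypes it was -0.29 and passed, with an edgeR adjusted p of 0.00716. Their ratio in FPKM, Slc1a5 over Slc1a4, was 2.07, 1.91 and 1.52 in KO replicates 1, 2 and 3, against 0.840, 0.840 and 0.856 in WT replicates 1, 2 and 3. Slc1a5 was thus the more abundant of the pair in all KO libraries and Slc1a4 in all WT libraries. Of the 3 tested glutamate transporters, which clear glutamate at synapses, 0 passed by edgeR or DESeq2, and 1, Slc1a2, had an unadjusted edgeR p under 0.05. Slc1a3 had 16.9, 16.4 and 16.7 CPM in KO replicates 1, 2 and 3, against 18.6, 19.1 and 4.86 CPM in WT replicates 1, 2 and 3 (0.23 ± 0.43, edgeR adjusted p = 0.757), and its sign turned without WT replicate 3 (-0.18). Slc1a2 (0.48 ± 0.20, edgeR adjusted p = 0.144) and Slc1a6 (-0.45 ± 0.25, edgeR adjusted p = 0.256) lay under 10 CPM.

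In family 38, the sodium-coupled system A carriers Slc38a1, Slc38a2 and Slc38a4 import glutamine, alanine and other small neutral amino acids. Slc38a1 (SNAT1; chromosome 15, 96571418 to 96642913) had the smallest adjusted p of all members: it had 168, 157 and 148 CPM in KO replicates 1, 2 and 3, against 51.2, 56.0 and 49.5 CPM in WT replicates 1, 2 and 3. The lowest KO library was far above the highest WT library, with a log2 fold change of 1.59 ± 0.10 (SE; edgeR adjusted p = 0.000111). Its more abundant relative Slc38a2 (SNAT2; chromosome 15, 96687392 to 96699730) had 486, 443 and 469 CPM in KO replicates 1, 2 and 3, against 402, 429 and 347 CPM in WT replicates 1, 2 and 3. These groups did not overlap by a narrow margin, and the difference did not pass (0.25 ± 0.11, 95% interval -0.01 to 0.50, edgeR adjusted p = 0.17). Slc38a4 (SNAT4), an imprinted gene in mouse, was highest in replicate 3 of both genotypes, with 7.43, 6.91 and 30.2 CPM in KO replicates 1, 2 and 3 and 3.31, 3.52 and 10.9 CPM in WT replicates 1, 2 and 3. Its difference did not pass (1.33 ± 0.68, edgeR adjusted p = 0.229). Without replicate 3 of both genotypes the difference was 1.07 with an edgeR adjusted p of 1.05e-05, which leaves out the spread of replicate 3. Slc38a1 made up 19.6%, 19.7% and 17.1% of the system A sum in KO replicates 1, 2 and 3, against 8.29%, 8.43% and 9.73% in WT replicates 1, 2 and 3. Slc38a2 made up most of it in every library, at 75.9% to 78.9% in KO libraries and 86.7% to 90.8% in WT libraries.

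Slc38a10 (chromosome 11, 120103960 to 120152341), a family member whose transport is less well described, went the other way. It had 236, 256 and 201 CPM in KO replicates 1, 2 and 3, against 327, 370 and 337 CPM in WT replicates 1, 2 and 3. All KO libraries lay below all WT libraries (-0.58 ± 0.12, edgeR adjusted p = 0.0154), and the call was lost without KO replicate 1 (adjusted p = 0.064) or WT replicate 2 (0.0638). The lysosomal glutamine carrier Slc38a7 did not pass, at 66.6 ± 2.76 CPM in KO cells and 64.7 ± 8.14 CPM in WT cells (SD, n = 3 each; 0.04 ± 0.11, edgeR adjusted p = 0.834). The lysosomal arginine sensor Slc38a9 (0.14 ± 0.18, edgeR adjusted p = 0.648) and Slc38a6 (-0.18 ± 0.12, edgeR adjusted p = 0.344) did not pass either. The tested genes of family 36 gave -0.21 ± 0.11 for Slc36a1 (edgeR adjusted p = 0.254) and 0.03 ± 0.11 for Slc36a4 (edgeR adjusted p = 0.884), and the groups of both overlapped. Slc36a1 passed without replicate 3 of both genotypes, at -0.24 with an edgeR adjusted p of 0.029.

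Family 6 couples uptake to sodium and chloride and includes transporters of neurotransmitters and osmolytes. Slc6a9 (GlyT1; chromosome 4, 117834506 to 117883487), which takes up glycine, had 59.7, 56.1 and 47.9 CPM in KO replicates 1, 2 and 3, against 18.3, 24.3 and 22.3 CPM in WT replicates 1, 2 and 3. The KO libraries were all well above the WT libraries (1.33 ± 0.14, edgeR adjusted p = 0.00113), though its locus overlaps that of B4galt2 and Ccdc24. Slc6a7 (chromosome 18, 60995381 to 61014199), the brain proline transporter, was scarce but also higher, at 0.446, 0.723 and 0.700 CPM in KO replicates 1, 2 and 3, against 0.252, 0.149 and 0.180 CPM in WT replicates 1, 2 and 3. Its groups did not overlap (1.68 ± 0.35, edgeR adjusted p = 0.0184), and the call was lost without KO replicate 2 (adjusted p = 0.071) or WT replicate 2 (0.0794).

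The 4 lower members of the family were Slc6a6, Slc6a15, Slc6a4 and Slc6a14. Slc6a6 (TauT; chromosome 6, 91684053 to 91759066), which imports the osmolyte taurine, had 141, 134 and 127 CPM in KO replicates 1, 2 and 3, against 171, 180 and 244 CPM in WT replicates 1, 2 and 3. WT replicate 3 stood above its group and no KO library reached a WT library (-0.57 ± 0.14, edgeR adjusted p = 0.0355). This call was lost without KO replicate 1 (adjusted p = 0.101), KO replicate 2 (0.103), KO replicate 3 (0.0712) or WT replicate 2 (0.0683), and with library size alone as the scaling (0.0597). Slc6a15 (chromosome 10, 103367783 to 103419377), a carrier of branched-chain amino acids and proline known from brain, had 12.8, 12.3 and 10.3 CPM in KO replicates 1, 2 and 3, against 19.1, 17.6 and 24.6 CPM in WT replicates 1, 2 and 3. The groups did not overlap (-0.79 ± 0.16, edgeR adjusted p = 0.0161), and the call was lost without KO replicate 1 (adjusted p = 0.0521) or KO replicate 2 (0.0526).

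Slc6a4 (chromosome 11, 76998603 to 77032340), the serotonin transporter, was low in all libraries, at 0.789, 0.875 and 0.427 CPM in KO replicates 1, 2 and 3 and 2.82, 3.35 and 2.16 CPM in WT replicates 1, 2 and 3. The highest KO library was below the lowest WT library (-1.99 ± 0.32, edgeR adjusted p = 0.00606). This call was lost with replicates 1 and 2 of each genotype summed (edgeR adjusted p = 0.0711). Slc6a14 (chromosome X, 21714896 to 21742355), a broad-range carrier of neutral and cationic amino acids, had 2.05, 6.01 and 3.16 fragments in KO replicates 1, 2 and 3, against 38.8, 36.4 and 18.8 in WT replicates 1, 2 and 3. It also fell without overlap (-3.02 ± 0.51, edgeR adjusted p = 0.00779), and is X-linked like Slc7a3, so the Xist difference stands beside it too, and its part was not tested. The call of Slc6a14 was lost with replicates 1 and 2 of each genotype summed and in the unfiltered fit on FPKM. The brain-enriched Slc6a17, a vesicular carrier, had 92.7, 90.7 and 57.1 CPM in KO replicates 1, 2 and 3, against 85.4, 96.6 and 89.1 CPM in WT replicates 1, 2 and 3, and did not pass (-0.17 ± 0.18, edgeR adjusted p = 0.562). The creatine transporter Slc6a8 (chromosome X, 73673150 to 73682502) had 236, 230 and 183 CPM in KO replicates 1, 2 and 3, against 164, 181 and 202 CPM in WT replicates 1, 2 and 3. Its groups overlapped through replicate 3 (0.25 ± 0.13, edgeR adjusted p = 0.24). Without replicate 3 of both genotypes the log2 fold change was 0.44 with an edgeR adjusted p of 0.000311, which again leaves out the spread of replicate 3. The noradrenaline transporter Slc6a2, with 10.3 to 14.0 fragments in KO libraries and 0 to 6.63 in WT libraries, did not pass (2.12 ± 0.81, edgeR adjusted p = 0.119). Neither did Slc6a20b, with at most 18.4 fragments (edgeR adjusted p = 0.995), whose locus overlaps Sacm1l. The groups of Slc6a2 did not overlap, and it passed without WT replicate 3 (4.26, edgeR adjusted p = 0.0186) and without replicate 3 of both genotypes (4.36, edgeR adjusted p = 0.00248).

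In family 43, Slc43a1 (LAT3; chromosome 2, 84838850 to 84863594) lets large neutral amino acids such as leucine cross without sodium. It had 2.47, 2.84 and 2.49 CPM in KO replicates 1, 2 and 3, against 0.286, 0.581 and 0.719 CPM in WT replicates 1, 2 and 3. The groups were widely apart (2.29 ± 0.33, edgeR adjusted p = 0.00407), a 4.90-fold difference. The related Slc43a2 (LAT4) did not pass (-0.17 ± 0.14, edgeR adjusted p = 0.464). Slc43a3, which carries purine bases and made up 81.3% of the family's summed FPKM, averaged 20.9 ± 1.18 CPM in KO cells and 23.7 ± 2.53 CPM in WT cells (SD, n = 3 each; -0.18 ± 0.12, edgeR adjusted p = 0.328).

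**Figure D4:**
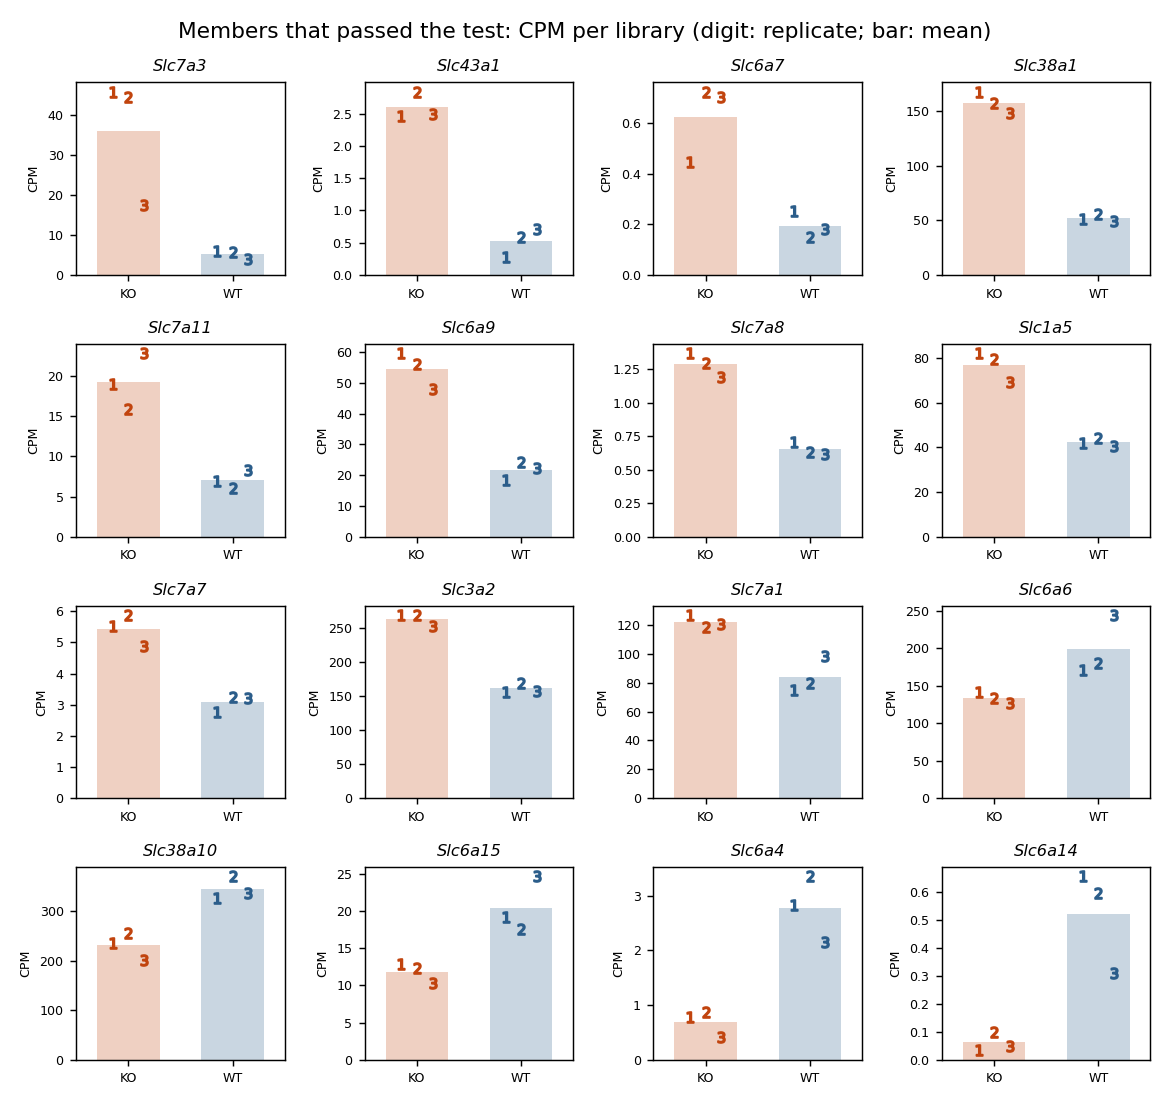
CPM in each library for the 16 members that passed the test, Fbxw7 KO left of WT in each panel, with the replicate number as the symbol and a bar at the group mean. In no panel do the groups overlap, and Slc7a3 shows KO replicate 3 at 17.5 CPM below the other KO libraries.

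A group of 8 members had no fragment in any of the 6 libraries, among them the GABA transporters Slc6a11 and Slc6a13, the kidney-enriched Slc6a18, the light chains Slc7a9 and Slc7a12, and the proton-coupled Slc36a2 and Slc36a3. They were not detectable at this depth. A further 17 fell below the count filter. Of family 1 these were the glutamate transporters Slc1a1 and Slc1a7, at most 13.3 and 7.89 fragments in a library. Slc1a1, the neuronal and epithelial form, had 3.07, 2 and 0 fragments in KO replicates 1, 2 and 3, against 7.95, 3.77 and 13.3 in WT replicates 1, 2 and 3, the only untested member whose groups did not overlap. Of family 6 they were the dopamine transporter Slc6a3, the neuronal glycine transporter Slc6a5, the betaine transporter Slc6a12, the epithelial neutral carrier Slc6a19, and Slc6a16, Slc6a20a and Slc6a21, with at most 7.89 fragments in any library. Of family 7 they were the light chains Slc7a10, Slc7a13 and Slc7a15 and the lysosomal Slc7a14, with at most 6.63 fragments. Of family 38 they were the system N carriers Slc38a3 and Slc38a5, and Slc38a8 and Slc38a11, with at most 4.42 fragments. Slc6a20a and Slc6a20b are close copies, so the split of reads between them is uncertain.

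Promoter windows of 250 bases were at hand for 45 of the 62 members (66 windows, as some genes have several starts), including 7 of the 11 higher and 3 of the 5 lower members. The composite element TGATGNAAN, searched on both strands, was in 3 of 14 windows of higher members, belonging to Slc7a11 and Slc7a7, in 0 of 3 windows of lower members, in 0 of 21 windows of tested members that did not pass, and in 3.44% of all 32851 windows. The antioxidant element core TGACNNNGC was in 4 of 14 windows of higher members, those of Slc43a1, Slc6a9 and Slc7a1, in 0 of 3 of lower members, in 2 of 21 of members that did not pass, and in 10.2% of all windows. The E-box CACGTG was in 1 of 14 windows of higher members (Slc43a1), 0 of 3 of lower members and 3 of 21 of members that did not pass, and in 6.02% of all windows. Windows of 1 gene can overlap, and absence of a match says only that these letters are not in the window.

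Genes around the transporters were read from lists. The amino acid response detects uncharged tRNA and raises ATF4. Of 16 tested genes listed for it, regulators and targets together, 6 were higher and 0 lower by edgeR (1 lower at an unadjusted p under 0.05). Over all tested genes 8.03% were higher and 8.08% lower. The median log2 fold change of the list was 0.58, against 0.01 over all tested genes. The genes of the list named here are targets of the response, not its sensors. Asns, the asparagine synthetase, averaged 250.5 ± 10.7 CPM in KO cells and 151 ± 20.7 CPM in WT cells (0.73 ± 0.12, edgeR adjusted p = 0.00617). The pseudokinase gene Trib3 (1.01 ± 0.14, edgeR adjusted p = 0.0038), the phosphatase subunit Ppp1r15a (0.92 ± 0.13, edgeR adjusted p = 0.00351) and the glutathione-degrading Chac1 (1.06 ± 0.18, edgeR adjusted p = 0.00833) also rose. Of 32 tested genes of lysosomal amino acid sensing, 4 were higher and 2 lower, near those shares of all tested genes, with a median of 0.02. Fnip2 (0.49 ± 0.10, edgeR adjusted p = 0.0184), Depdc5 (0.45 ± 0.10, edgeR adjusted p = 0.0217) and Rragd (0.86 ± 0.20, edgeR adjusted p = 0.0249) rose, and Gatsl3 fell (-0.54 ± 0.14, edgeR adjusted p = 0.0384).

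Of 17 tested amino acid carriers of other families, 1 was higher, the vesicular glutamate transporter Slc17a7 (1.42 ± 0.34, edgeR adjusted p = 0.0286), and 1 lower, the mitochondrial glycine carrier Slc25a38 (-0.54 ± 0.12, edgeR adjusted p = 0.0208), with a median of -0.12. These counts lie near the 8.03% higher and 8.08% lower of all tested genes. Slc17a7 was scarce, at 22.5 to 29.2 fragments in KO libraries and 6.63 to 13.3 in WT libraries. Of 10 tested partners and turnover factors of the carriers, 0 were higher by edgeR, also at an unadjusted p under 0.05. In the same list 3 were lower, against 8.08% lower over all tested genes, and the median was -0.13. Among the lower were the adhesion receptor Cd44, a variant of which stabilises Slc7a11 protein, at 299 ± 20.4 CPM in KO cells and 648 ± 270 CPM in WT cells (edgeR adjusted p = 0.0253), and the ubiquitin ligase Nedd4l (-0.58 ± 0.15, edgeR adjusted p = 0.0368).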

How the data were processed

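RNA of fibroblasts was sequenced in 3 Fbxw7 KO and 3 WT libraries after TruSeq preparation, per the labels' protocols. Per the submitters' processing notes, TopHat2 2.1.1, SAMtools 1.5, deepTools and Cufflinks 2.2.1 were used on mm10. The authors deposited estimated counts (expected fragments per locus) and FPKM, per the file headers. The estimated counts had been multiplied by 1 factor per library (88.8% to 89.4% of values were whole multiples, tolerance 0.05). No source used here says whether strand was used in counting.

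Estimated counts of the named loci were rounded and tested with edgeR 4.0.16 (filterByExpr, TMM factors, robust quasi-likelihood F test, two-sided, genotype as the only term, limma 3.58.1, R 4.3.3), with Benjamini-Hochberg adjustment over all genes tested and a threshold of 0.05. The 9 named loci marked HIDATA, where Cufflinks skips estimation, were not members. The standard error was taken from the F value, as the size of the log2 fold change over its root. Fragments of single genes are estimated counts as deposited, still multiplied by the library's factor of 0.789 to 1.255. Library totals, the floor of 3 fragments and the spread between libraries used counts divided by that factor. Spread between libraries is a median chi-square in units of sampling noise, over genes of 50 fragments or more. Without molecular identifiers PCR copies count as fragments, so intervals and floors cover counting error only. The code was tested on simulated data. Every member that passed, every member of at least 10 FPKM, the untested members and up to 4 genes of each other list are named, except for 2 genes that are not reported here; further tested members are given with their values. Members, lists and the naming rule were chosen with earlier results of these data known. Promoters came from RefSeq, and overlaps from GENCODE M21. Alternatives were other scalings, filters, DESeq2 1.42.0, limma on log2 FPKM, the replicate number as a block, left-out or summed replicates, counts divided by the factor, and loci marked FAIL left out. The planned comparison of protein sequences was not run.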

Additional observations from a re-analysis of the deposited data

How the results depend on the processing

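With 3 libraries per genotype, depth limits the scarce carriers: the 17 members below the filter had at most 13.3 fragments in a library. Leaving out 1 library at a time gave 1169 to 3282 genes past the threshold, 7 to 13 members higher and 2 to 5 lower in KO cells, against 2705, 11 and 5. Without replicate 3 of both genotypes there were 6993 of 16926 tested genes. With replicates 1 and 2 of a genotype summed to 1 sample there were 478 of 17853 tested genes, 5 members higher and 0 lower. The filtered fits on FPKM, over 13176 genes, called 1492 genes, 6 members higher and 3 lower with a pseudocount of 1, and 1558, 7 and 3 with 0.1. They tested 28 members and left out the called Slc43a1, Slc6a7, Slc7a8, Slc6a4 and Slc6a14, which averaged under 1 FPKM. Without a filter 1285 of 27649 genes and 1 lower member passed, and Slc6a7, Slc7a1 and Slc7a7 were the only higher members to lose the call. With library size alone the median of all genes was 0.10 and 65.7% of calls were higher, against 49.8%. Over the single members, 629 values kept direction and side of the threshold, 46 lost the call, 13 gained it and 29 changed sign; each change of sign was in a member that did not pass, and the cause was not tested.

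Leaving out 1 library at a time, Slc1a3 ranged from -0.18 to 0.51, Slc3a1 from -0.080 to 0.62, Slc7a4 from -0.038 to 0.25, Slc36a4 from -0.074 to 0.10, Slc38a7 from -0.061 to 0.10 and Slc38a9 from -0.018 to 0.25, each lowest without WT replicate 3. Slc6a17 ranged from -0.29 to 0.017 and Slc6a20b from -0.29 to 0.40. Without replicate 3 of both genotypes, values were -0.18 for Slc1a3, -0.080 for Slc36a4, -0.053 for Slc38a7, -0.15 for Slc38a9 and 0.011 for Slc6a17. In the fits on FPKM with a pseudocount of 1, filtered or not, Slc36a4 was -0.041, Slc38a7 -0.010 and Slc7a4 -0.063; with 0.1 they were -0.044, -0.011 and -0.11. In the unfiltered fit Slc1a2 was -0.005 and Slc6a20b 0.0032. Slc6a20b was 0.033 with upper-quartile factors, 0.092 with library size alone and 0.0099 on counts divided by the factor.

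Deviations from the group means of same-numbered libraries correlated at 0.02, 0.10 and 0.08. KO replicates 2 and 3 correlated best with the WT library of their own number, and KO replicate 1 with WT replicate 2 (0.08). Values this small cannot decide whether same-numbered libraries were paired. With the replicate block 2356 genes, 12 members higher and 4 lower passed. Slc7a6 (0.49, edgeR adjusted p = 0.0326) and Slc38a4 (1.21, edgeR adjusted p = 0.00868) gained the call, Slc6a6 and Slc6a7 lost it, and Slc6a20b was 0.0005.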
